A study of Mus musculus with 44 samples.

Results

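The collagen and laminin genes are the 53 protein-coding mouse genes on autosomes whose symbol marks them as a collagen chain (Col, a number, a, a number; 42 genes) or as a laminin alpha, beta or gamma chain (11 genes), out of 20665 protein-coding autosomal genes in RefSeq. Their DNA methylation was read from reduced representation bisulfite sequencing (RRBS), a method that samples CpG-rich parts of the genome and gives the share of methylated molecules at each cytosine. There were 44 libraries of blood, hippocampus and frontal cortex from adult wild-type male C57BL/6J mice aged 8 to 12 weeks and of about 30 g. The question addressed was how an endotoxin challenge changes methylation in blood and brain of mice that model Gulf War Illness. All groups, the controls included, had drunk corticosterone (CORT) for 7 days, at 200 mg/L in water with 0.6% ethanol, and had been given 1 intraperitoneal dose of diisopropyl fluorophosphate (DFP, an irreversible acetylcholinesterase inhibitor, 4 mg/kg) on day 8 and further 7-day courses of CORT in alternate weeks up to 5 weeks. The control groups then received saline and were sampled at 6 h (4 libraries of blood, 3 of hippocampus, 4 of cortex). The challenged groups received lipopolysaccharide (LPS, a bacterial endotoxin) under the skin at 0.5 mg/kg and were sampled at 6 h (4, 4 and 4 libraries), 12 h (3, 3 and 4) or 24 h (3, 4 and 4). No group went without CORT and DFP, and no saline group was sampled at 12 h or 24 h, so at those times the injection and the time since it cannot be told apart. Nothing in the labels says that replicates came from different animals. The p-values therefore rest on the spread among these libraries, which may be technical.

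Collagens are triple-helical proteins of the extracellular matrix. Fibrillar chains build the tension-bearing fibres of connective tissue, type IV chains build the sheet of basement membranes, and other chains coat fibrils, anchor cells or span the cell membrane. Laminins are heterotrimers of an alpha, a beta and a gamma chain that polymerise into the second network of basement membranes and bind integrins and dystroglycan. In the brain, both families are best known from the vascular basement membrane, made by endothelial cells, pericytes and astrocytes, and blood cells meet them when they cross that wall. Methylation of a CpG-rich start is usually low in mammalian cells and that of a gene body usually high, and the level of a gene body differs between cell types.

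Promoters of 38 members could be matched by symbol in RefSeq's table for GRCm38.p6 (250 bases before to 50 after each start). The 42 promoters of these members held a median of 11 CpG sites in 300 bases, against 14 over all 20085 promoters of autosomal protein-coding genes. The letters GGGCGG, searched on both strands, stood in 57.1% of the member promoters and in 47.0% of all. The 4 promoters printed here are examples with different levels, from the nearly unmethylated start that the divergent type IV genes Col4a1 and Col4a2 share to the partly methylated starts of a cartilage collagen and a type VI collagen. Capitals mark the CpG sites with a cytosine measured in all 9 tables, and each sequence runs 5′ to 3′ along its gene.
Col4a2 (chr8:11312555-11312854, plus strand): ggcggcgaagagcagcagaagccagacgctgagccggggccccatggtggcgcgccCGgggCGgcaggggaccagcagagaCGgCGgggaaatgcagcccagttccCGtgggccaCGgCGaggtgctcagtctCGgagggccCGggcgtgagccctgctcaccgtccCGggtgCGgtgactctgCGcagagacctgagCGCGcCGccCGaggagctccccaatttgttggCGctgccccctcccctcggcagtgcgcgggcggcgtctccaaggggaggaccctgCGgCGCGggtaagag
Col5a3 (chr9:20815018-20815317, minus strand): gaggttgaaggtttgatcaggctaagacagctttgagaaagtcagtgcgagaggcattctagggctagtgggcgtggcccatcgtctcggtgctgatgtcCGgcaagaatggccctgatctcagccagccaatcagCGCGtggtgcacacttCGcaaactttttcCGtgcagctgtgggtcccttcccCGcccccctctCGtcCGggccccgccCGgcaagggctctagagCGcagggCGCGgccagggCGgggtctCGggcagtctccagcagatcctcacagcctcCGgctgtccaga
Col9a2 (chr4:121039316-121039615, plus strand): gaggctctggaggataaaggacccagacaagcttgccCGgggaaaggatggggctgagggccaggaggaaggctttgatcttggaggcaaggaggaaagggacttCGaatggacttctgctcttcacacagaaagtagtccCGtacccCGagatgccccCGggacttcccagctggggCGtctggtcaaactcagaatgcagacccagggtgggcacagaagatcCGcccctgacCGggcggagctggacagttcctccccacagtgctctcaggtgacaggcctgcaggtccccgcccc
Col6a5 (chr9:105960594-105960893, minus strand): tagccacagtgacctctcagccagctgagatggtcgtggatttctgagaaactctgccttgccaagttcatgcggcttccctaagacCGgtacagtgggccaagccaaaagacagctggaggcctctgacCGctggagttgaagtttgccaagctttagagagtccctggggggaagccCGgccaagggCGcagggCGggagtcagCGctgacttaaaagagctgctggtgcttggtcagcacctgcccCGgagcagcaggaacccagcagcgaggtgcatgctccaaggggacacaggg
Over the marked cytosines, the Col4a2 promoter, with 20 of its 33 CpG sites measured, stood at 0.424% ± 0.174 (SD, n = 4) in saline blood and at 0.751% ± 0.172 in LPS blood at 6 h, and it lay below 1% in all 12 groups. The Col5a3 promoter (a chain of type V collagen; 15 of 20 CpG sites) stood at 2.28% ± 0.406 and 4.98% ± 1.81 in the same groups, at 7.99% ± 1.25 in saline hippocampus and at 10.01% ± 1.79 in saline cortex. The Col9a2 promoter (a chain of type IX collagen, which coats cartilage fibrils; 8 of 10 CpG sites) stood at 7.28% ± 2.37, 13.2% ± 3.07, 20.6% ± 2.998 and 25.4% ± 4.22. The Col6a5 promoter (an alpha chain of type VI collagen; 7 of 10 CpG sites) stood at 14.9% ± 2.74, 22.7% ± 4.43, 28.3% ± 1.83 and 36.3% ± 5.26. In these last 3 promoters saline blood was the lowest of the 4 groups and saline cortex the highest.

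The deposited values are percentages with no read counts, so the depth behind them is unknown. The 9 tables, 1 for each tissue and time, held 1083654 to 1380165 cytosines, of which 904678 stood in all 9. The level of a member averages the cytosines in its RefSeq span and in 1000 bp on either side. All 53 members had the 3 cytosines required in 8 of the 9 tables, and 52 had them in blood at 12 h, where Col1a2 did not. Members lay on a higher level than most genes: their median over the members of a saline blood library was 51.8 to 53.1% in the 6 h table, against 19.8 to 20.4% over all genes. A change in the mix of cells in a tissue and a change within its cells cannot be told apart here. In blood, all 9 neutrophil marker genes were lower under LPS at 6 h (median difference -28.69 points). The mean over that list ran from 67.5 to 69.9% in the saline libraries (summed level 608 to 630) and from 42.9 to 48.4% in the LPS libraries (summed level 386 to 435). The defining granule genes Prtn3 (37.2% to 8.55%) and Mpo (71.2% to 40.4%) and the receptor gene Csf3r (61.9% to 46.1%) were among them, and no marker of the list was at 0. The fall covered 8 of the 9 at 12 h (64.4 to 67.0% against 34.97 to 42.8%) and 9 of 9 at 24 h (65.7 to 67.8% against 34.6 to 41.7%). Over 5 neuronal marker genes the mean was 37.2 to 37.9% in saline blood, 42.2 to 44.6% in LPS blood at 6 h, 20.96 to 21.7% in saline hippocampus and 23.6 to 25.2% in saline cortex. The neutrophil list ran from 73.4 to 75.0% in saline hippocampus and 77.5 to 83.3% in saline cortex. In the 6 h tables saline blood thus lay between LPS blood and brain on both lists. These means were taken over the cytosines of each table, not over shared ones. The same saline blood libraries averaged 68.4% on the neutrophil list in the 6 h table and 65.1% in the 12 h table. The order of blood and brain may therefore depend on the cytosines read. The other lists moved in blood as well at 6 h, saline against LPS libraries: 54.9 to 60.8% against 50.5 to 52.6% for T cells (6 of 7 genes measured) and 42.5 to 45.1% against 32.1 to 38.2% for B cells (3 of 4) were lower under LPS. Higher were the astrocyte list (44.4 to 47.7% against 51.1 to 56.7%, 4 of 5), the endothelial and mural list (62.7 to 65.3% against 65.9 to 68.2%) and the oligodendrocyte list (29.8 to 30.4% against 30.5 to 32.4%). The libraries of the 2 groups did not overlap in these 5 lists, and they overlapped in the fibroblast list (54.4 to 57.4% against 51.1 to 55.9%, 2 of 3). Each of these 5 lists held genes called in both directions. The part of the cell mix in the blood results below was not tested.

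In blood, most collagen and laminin genes carried more methylation after LPS than after saline. At 6 h, 34 of 53 members rose and 2 fell (limma on gene means, adjusted p under 0.05 over all genes). Of the 12340 genes tested in that comparison, 43.1% rose and 9.77% fell. The median difference was 3.83 points over the members and 1.18 points over all genes tested. At 12 h, 35 of the 51 members tested rose and 1 fell, where 48.8% of all genes rose and 8.02% fell, with medians of 4.87 and 1.68 points. At 24 h, 32 of 53 rose and 3 fell, where 41.6% of all genes rose and 8.88% fell, with medians of 4.45 and 1.31 points. The 3 times share the saline libraries. Each table has its own cytosines, so differences at 6, 12 and 24 h are not read over the same sites. The libraries of the 2 groups did not overlap in 35, 39 and 36 members at 6, 12 and 24 h, and in 50.3%, 58.8% and 54.1% of all genes. With the mean over all genes of each library set equal, 25 members were higher and 9 lower at 6 h, where 26.1% of all genes were higher and 37.2% lower. At 12 h these counts were 25 and 7 (all genes 27.0% and 37.0%), and at 24 h they were 22 and 7 (all genes 25.8% and 32.8%).

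**Figure D1:**
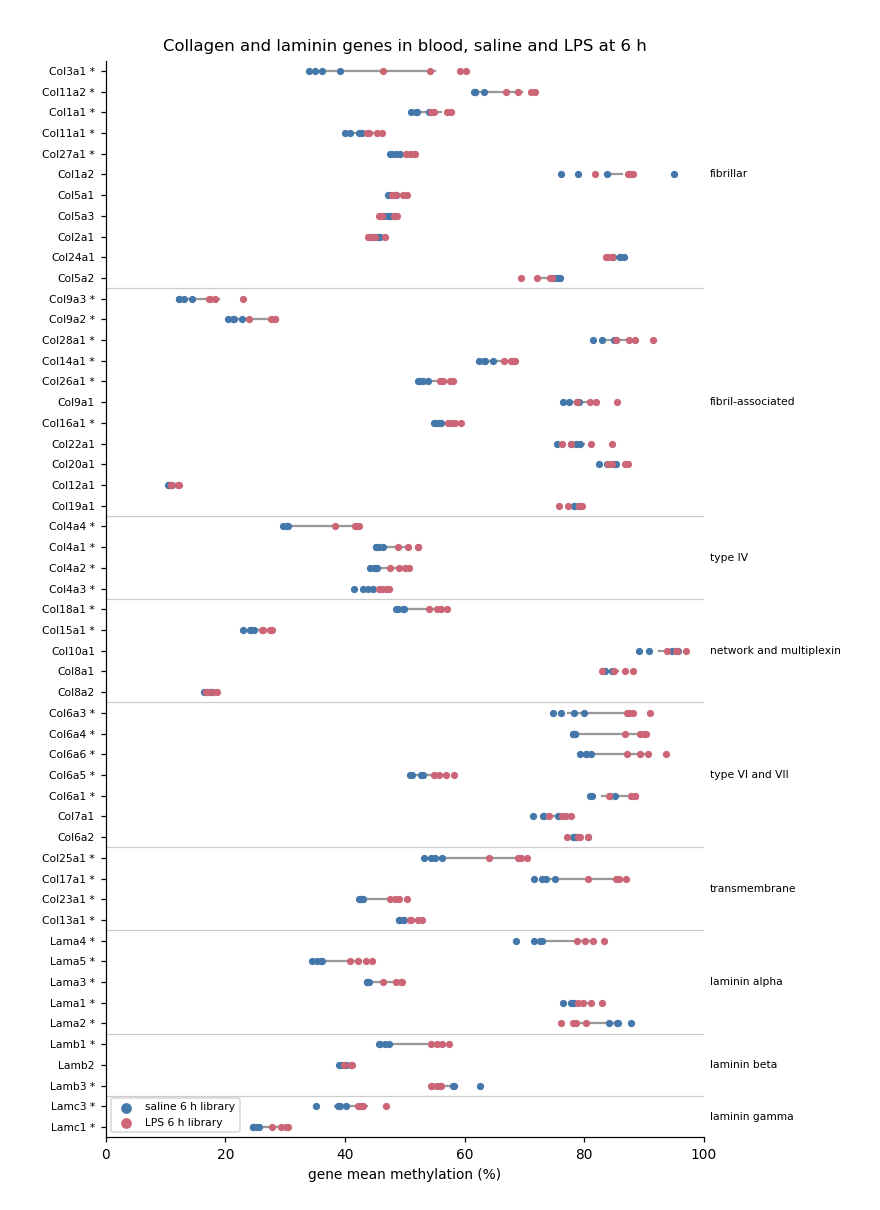
Mean methylation (x axis, percent) of 52 members in blood at 6 h, 1 point per library (blue saline, red LPS), grouped by family, with a grey line from the saline to the LPS mean and a star on each of the 35 called. Most lines run to the right, the longest for Col3a1, while Lama2 and Lamb3 run to the left.

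The fibril-forming chains were divided. Of 11, 5 rose at 6 h, 6 of the 10 tested at 12 h and 3 at 24 h, and 1 fell at 24 h. These counts, and those of the families below, stand beside 43.1%, 48.8% and 41.6% of all genes higher at 6, 12 and 24 h. The shares of all genes lower were 9.77%, 8.02% and 8.88%. No family was tested against these shares. Col3a1, the chain of type III collagen in vessel walls and other elastic tissues, rose the most of all members at each time. At 6 h its level (6 cytosines, chr1:45311538-45349706) was 35.02, 36.2, 39.1 and 34.0% in the saline libraries and 54.2, 59.3, 60.2 and 46.3% in the LPS libraries. All 4 LPS libraries stood above all 4 saline libraries, with a difference of 18.92 points (SE 2.85, limma adjusted p = 0.000565). At 12 h, over 4 cytosines, it was 15.03, 16.2, 15.4 and 12.0% in the saline libraries and 44.2, 47.2 and 45.5% in the LPS libraries, a difference of 31.00 points (SE 1.11, limma adjusted p = 1.35e-06). At 24 h the difference was 19.46 points (SE 2.96, limma adjusted p = 0.000959). With so few cytosines its value rests on a small piece of the gene. Col11a2, a cartilage chain, rose by 7.59 points at 6 h, 6.37 at 12 h and 7.34 at 24 h. Col1a1, the main chain of type I collagen in bone and skin, was at 52.1, 51.8, 51.1 and 54.1% in the saline libraries and 57.0, 54.4, 57.7 and 54.9% in the LPS libraries at 6 h. Its groups did not overlap and it rose by 3.71 points (SE 0.995, limma adjusted p = 0.0124), but with each library centred on the general level the difference was 1.82 points and not called (adjusted p = 0.0786). Its difference was 6.02 points (SE 1.41, limma adjusted p = 0.00798) at 12 h and 3.23 points (SE 1.40, limma adjusted p = 0.0899) at 24 h, where it was not called. Without LPS 24 h replicate 3 it was called at 24 h, at 4.36 points (adjusted p = 0.0349), and with the median over cytosines at 11.3 points (adjusted p = 0.0239). Its partner Col1a2 had 3 cytosines and was not called: its saline libraries alone ran from 76.1 to 94.9% at 6 h. Leaving out saline replicate 4, the highest of them, gave 6.60 points at 6 h (adjusted p = 0.0445) and 14.6 at 24 h (adjusted p = 0.00144). Col2a1, the cartilage chain, was not called, at 45.1% ± 0.635 (SD, n = 4) under saline and 45.0% ± 1.21 (SD, n = 4) under LPS over 122 cytosines. Col5a2, which sits beside Col3a1 on chromosome 1 and joins type I fibrils, was lower by 2.82, 1.89 and 2.60 points and passed the test at 24 h only (limma adjusted p = 0.0485). That call was lost without any 1 of 6 of the 7 libraries (all but LPS 24 h replicate 3), with adjusted p from 0.0534 to 0.171. It was also lost over cytosines in all 3 tables (-2.31 points, adjusted p = 0.0735).

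The 4 autosomal type IV chains, Col4a1 to Col4a4, which form the sheet of basement membranes, rose at each time. Col4a4, a chain of the specialised network of kidney and other thin membranes, was at 29.7, 30.2, 30.3 and 30.5% in the saline libraries and 41.9, 38.3, 42.3 and 41.7% in the LPS libraries at 6 h (48 cytosines, chr1:82448419-82587034). The lowest LPS library, replicate 2, still stood above the highest saline library. It rose by 10.87 points (SE 0.86, limma adjusted p = 1.61e-05), by 16.71 points (SE 1.04, limma adjusted p = 1.15e-05) at 12 h and by 12.51 points (SE 0.87, limma adjusted p = 1.65e-05) at 24 h. The tables of 12 and 24 h held 34 and 51 of its cytosines. Over the 33 common to the blood tables, it was at 38.3% under saline and 51.9, 53.9 and 52.3% under LPS at 6, 12 and 24 h. Its head-to-head neighbour Col4a3 rose by 3.26 points at 6 h, 3.66 at 12 h and 3.93 at 24 h. At 6 h, 13 of the 48 cytosines read for Col4a4 lie in the span of Col4a3. Of the 50 read for Col4a3, 16 lie in the span of Col4a4. Both sets count toward both genes, so the 2 rises are not independent. Col4a1 and Col4a2, the chains found in nearly all basement membranes, are also head to head and share cytosines. Col4a1 rose, at 45.6% ± 0.550 (SD, n = 4) under saline and 50.9% ± 1.59 (SD, n = 4) under LPS, a difference of 5.31 points (SE 0.84, limma adjusted p = 0.000727). Col4a2 rose by 4.50 points (SE 0.76, limma adjusted p = 0.00106), and over the 3 times by 4.50 points at 6 h, 4.62 at 12 h and 5.50 at 24 h. With the median over its cytosines the Col4a2 difference at 12 h was 8.35 points and not called (adjusted p = 0.132). Within 500 bp of the start they share, whose sequence is printed above, the level was 0.969% under saline and 1.24% under LPS.

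Among the type VI and VII chains, which form beaded filaments around cells and anchoring fibrils under skin, 5 of 7 rose at 6 h, 4 at 12 h and 4 at 24 h. Col6a3, Col6a4 and Col6a6 stood at 77.3 to 80.2% under saline and at 88.4 to 90.2% under LPS at 6 h. Col6a3 was at 79.9, 74.8, 76.1 and 78.3% in the saline libraries and 87.2, 87.4, 91.0 and 88.1% in the LPS libraries at 6 h. The groups did not overlap, and the difference was 11.16 points (SE 1.40, limma adjusted p = 0.000194). Col6a4 rose by 10.84 points at 6 h, 10.17 at 12 h and 8.97 at 24 h, and Col6a6 by 9.94 points at 6 h, 11.86 at 12 h and 11.20 at 24 h. Col6a1 rose by 4.33 points (SE 1.43, limma adjusted p = 0.0312), a call lost without any 1 of 5 libraries (saline replicates 2 and 4, LPS replicates 1, 3 and 4, adjusted p 0.070 to 0.0861) and with centring (2.44 points, adjusted p = 0.131). At 24 h it was lost without saline replicates 2 or 4 or LPS replicate 2 (adjusted p 0.0636 to 0.0679) and with centring (3.18 points, adjusted p = 0.0749). With the median over its cytosines the difference was 0.82 points at 6 h, 2.82 at 12 h and 2.62 at 24 h, and none of these was called (adjusted p = 0.791, 0.228 and 0.385). Col6a2, its neighbour, was not called at any time, at 78.9% ± 1.11 (SD, n = 4) under saline and 79.0% ± 1.49 (SD, n = 4) under LPS. Col7a1, the anchoring fibril chain, was higher by 2.92 points at 6 h, 2.06 at 12 h and 4.45 at 24 h and was not called at any time.

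All 4 transmembrane collagens rose at 6 h and 12 h and 3 of 4 at 24 h. Col25a1, a neuronal chain known from amyloid plaques, was at 56.2, 54.3, 53.3 and 55.0% in the saline libraries and 70.4, 64.1, 68.9 and 69.4% in the LPS libraries at 6 h (95 cytosines, chr3:130180358-130599884). The highest saline library lay well under the lowest LPS library. It rose by 13.51 points (SE 1.41, limma adjusted p = 6.75e-05), by 17.94 points (SE 0.85, limma adjusted p = 3.68e-06) at 12 h and by 15.50 points (SE 1.24, limma adjusted p = 3.48e-05) at 24 h. Col17a1, of the hemidesmosomes that hold epithelium to its basement membrane, rose, at 73.3% ± 1.45 (SD, n = 4) under saline and 84.7% ± 2.79 (SD, n = 4) under LPS, a difference of 11.36 points (SE 1.49, limma adjusted p = 0.000256). Col23a1 rose by 6.17 points at 6 h, 6.63 at 12 h and 6.69 at 24 h, and Col13a1, a chain of cell adhesion sites, by 2.36 and 2.04 points at 6 and 12 h. Col13a1 was higher by 1.47 points at 24 h and was not called there.

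Fibril-associated chains link fibrils to one another and to other molecules. Of 11, 6 rose at 6 h, 6 at 12 h and 8 at 24 h. Of the type IX chains, Col9a2 and Col9a3 had low levels at 6 h: Col9a3 rose, at 13.004% ± 1.04 (SD, n = 4) under saline and 18.97% ± 2.68 (SD, n = 4) under LPS, and Col9a2, at 21.5% ± 0.945 (SD, n = 4) under saline and 27.02% ± 2.11 (SD, n = 4) under LPS. Col12a1, Col19a1 and Col20a1 differed by 0.80, -0.74 and 1.59 points at 6 h, and none of the 3 was called at any time. Among the network and multiplexin chains, Col18a1, the parent of the angiogenesis inhibitor endostatin, rose by 6.398 points at 6 h, 8.65 at 12 h and 6.44 at 24 h and Col15a1, its relative, by 2.87 points at 6 h, 1.83 at 12 h and 2.82 at 24 h, while Col8a1, Col8a2 and Col10a1 were not called.

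The laminin alpha chains, which carry the cell-binding end of the trimer, gave 4 rises and 1 fall at every time. Lama4, the chain of endothelial basement membranes, was at 72.6, 73.0, 71.5 and 68.6% in the saline libraries and 81.5, 78.8, 80.1 and 83.3% in the LPS libraries at 6 h and rose by 9.47 points (SE 1.34, limma adjusted p = 0.000381). Lama5, the other endothelial chain, was at 35.4, 36.1, 36.0 and 34.5% in the saline libraries and 44.5, 40.8, 43.6 and 42.1% in the LPS libraries and rose by 7.23 points (SE 0.83, limma adjusted p = 0.000119) over 201 cytosines. In both, every LPS library stood above every saline library. With the median over its cytosines Lama4 differed by 2.36 points at 6 h and 0.99 at 24 h and was not called (adjusted p = 0.258 and 0.750). Lama3, of epithelial membranes, rose by 4.65 points at 6 h, 5.25 at 12 h and 4.72 at 24 h. Lama1, the embryonic chain, rose by 3.16 points (SE 1.07, limma adjusted p = 0.0343). That call was lost without any 1 of 6 of the 8 libraries (all but LPS replicates 2 and 4, adjusted p 0.0552 to 0.0936), with centring (1.27 points, adjusted p = 0.230) and with the median over cytosines (1.52 points, adjusted p = 0.432). At 12 h it was lost with centring (1.53 points, adjusted p = 0.200) and with the median (1.43 points, adjusted p = 0.435). At 24 h its call was lost without any 1 of 6 of the 7 libraries (all but LPS replicate 3, adjusted p 0.0604 to 0.0983), with centring (1.84 points, adjusted p = 0.139) and with the median (2.70 points, adjusted p = 0.238).

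Lama2, the chain of muscle and of brain vessels whose loss causes a muscular dystrophy, went the other way. Over 17 cytosines (chr10:26981285-27617191) it was at 85.7, 85.4, 84.1 and 87.9% in the saline libraries and 78.0, 78.5, 80.2 and 76.1% in the LPS libraries at 6 h, and every LPS library stood below every saline library. It fell by 7.52 points at 6 h (SE 1.21, limma adjusted p = 0.00082), by 7.18 at 12 h (SE 1.38, adjusted p = 0.00313) and it fell by 9.20 at 24 h (SE 1.81, adjusted p = 0.00364). With the median in place of the mean over its cytosines the difference was -3.35 at 6 h, 1.74 at 12 h and -4.82 at 24 h, and none of these was called.

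The 3 beta chains differed from one another. Lamb1, the most widespread beta chain, was at 46.7, 45.7, 47.4 and 45.9% in the saline libraries and 57.3, 54.4, 56.2 and 55.4% in the LPS libraries at 6 h (65 cytosines, chr12:31265146-31329644) and rose by 9.39 points (SE 0.78, limma adjusted p = 1.94e-05), by 11.12 points (SE 0.60, limma adjusted p = 6.32e-06) at 12 h and by 10.93 points (SE 0.80, limma adjusted p = 2.09e-05) at 24 h. Its groups were separate at each time. Lamb2, the chain of muscle synapses and kidney, differed by 1.14 points at 6 h, 1.60 at 12 h and 1.06 at 24 h and was called at 12 h only, where centring turned it to -0.79 points (adjusted p = 0.138). At 6 h Lamb2 was called without LPS replicate 2 (1.44 points, adjusted p = 0.0278). Of its 127 cytosines at 6 h, 55 lie in its own span and 72 in that of Usp19, which the 1000 bp flank reaches. At 12 h, where it was called, these counts were 30 and 67 of 97, so most of its value is read outside the gene. Lamb3, the epithelial chain, was at 55.9, 58.3, 58.0 and 62.6% in the saline libraries and 56.1, 54.6, 55.4 and 54.4% in the LPS libraries at 6 h. One LPS library overlapped the lowest saline library, and Lamb3 fell by 3.58 points (SE 1.33, limma adjusted p = 0.0491). That call was lost without any library other than saline replicate 1 (adjusted p 0.0665 to 0.105), and without saline replicate 4 the difference was -2.29 points (adjusted p = 0.0687). At 24 h it fell by 5.05 points (SE 1.56, limma adjusted p = 0.0277), a call lost without saline replicate 2 or LPS replicates 1 or 3 (adjusted p 0.0516 to 0.0791). The median over its cytosines moved the other way, by 10.3 points at 6 h and 14.02 at 24 h.

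Of the gamma chains, Lamc1 and Lamc3 rose at each time. Lamc1, the common gamma chain and the one that binds nidogen, rose at 6 h, at 25.1% ± 0.457 (SD, n = 4) under saline and 29.4% ± 1.24 (SD, n = 4) under LPS over 194 cytosines, a difference of 4.33 points (SE 0.62, limma adjusted p = 0.000421). Lamc3 rose by 5.28 points at 6 h, 8.90 at 12 h and 5.20 at 24 h, over 65, 48 and 67 cytosines. Over the 47 common to the blood tables, Lamc3 was at 40.9% under saline and 48.4, 49.9 and 49.0% under LPS at those times.

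Gene means can hide opposite changes within a gene. Tiles of 1000 bp with at least 3 cytosines were compared in the same way, with a difference of at least 5 points required. Of 376 member tiles in blood at 6 h, 125 rose and 30 fell, where 30.1% of all tiles rose and 11.8% fell. At 12 h, 128 rose and 24 fell of 315, against 35.3% and 9.99% of all tiles, and at 24 h 132 rose and 25 fell of 349, against 31.7% and 11.3%. In 16 genes at 6 h, 18 at 12 h and 15 at 24 h, tiles went both ways. The share of all genes with tiles in both directions was not counted, so these counts do not show whether this is a trait of the members. Some members hold many tiles, such as Col23a1 (21 at 6 h) and Col13a1 (20). The largest rise at 6 h was in Lamb1, in a tile inside the gene about 37 kb past its start (chr12:31302000-31302999, 10 cytosines). It was at 25.6, 30.3, 35.6 and 28.9% in the saline libraries and 91.7, 82.9, 88.2 and 91.2% in the LPS libraries, a rise of 58.41 points (SE 3.37, limma adjusted p = 2.55e-08). In the same gene, a tile 2.2 kb past the start (chr12:31267000-31267999, 5 cytosines) fell from 48.7, 54.8, 50.6 and 57.3% to 32.0, 35.5, 31.0 and 24.0%. The libraries did not overlap in either tile, and another called tile of Lamb1 rose by 8.89 points.

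Col18a1 had the next largest rise, in a tile whose centre lies 205 bp past the second of its 2 listed starts (chr10:77113000-77113999, 9 cytosines). It was at 33.2, 27.5, 28.9 and 27.3% in the saline libraries and 92.1, 76.4, 85.2 and 90.01% in the LPS libraries, a rise of 56.72 points (SE 3.73, limma adjusted p = 5.16e-08). Its differences at 12 h and 24 h were 63.19 and 58.82 points. In Col25a1, 21 cytosines deep in the gene (chr3:130579000-130579999) were at 41.5, 29.1, 32.6 and 37.4% in the saline libraries and 89.4, 71.8, 84.7 and 85.4% in the LPS libraries. In Col23a1, a tile of 3 cytosines (chr11:51460000-51460999) rose by 51.62 points (SE 4.25, limma adjusted p = 2.65e-07). A tile inside Col6a6 (chr9:105692000-105692999, 4 cytosines) rose by 49.22 points and was also among the 5 largest rises at 6 h.

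The largest fall lay inside Col11a2, a gene whose mean rose (chr17:34057000-34057999, 7 cytosines). That tile was at 60.3, 48.4, 64.0 and 55.9% in the saline libraries and 6.94, 20.2, 8.54 and 9.55% in the LPS libraries, and its differences were -45.84, -48.62 and -49.05 points at 6, 12 and 24 h. The next lay just before Col16a1, a fibril-associated chain (chr4:130046000-130046999, 3 cytosines), at 48.7, 50, 41.6 and 50.5% in the saline libraries and 0.725, 13.01, 6.10 and 3.89% in the LPS libraries. Every LPS library was below every saline library in both. In Col13a1 a tile of 7 cytosines (chr10:61906000-61906999) fell by 35.64 points (SE 2.07, limma adjusted p = 2.61e-08). A second tile of Col16a1 (chr4:130081000-130081999) and the Lamb1 tile near its start fell by 23.34 and 22.21 points.

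**Figure D2:**
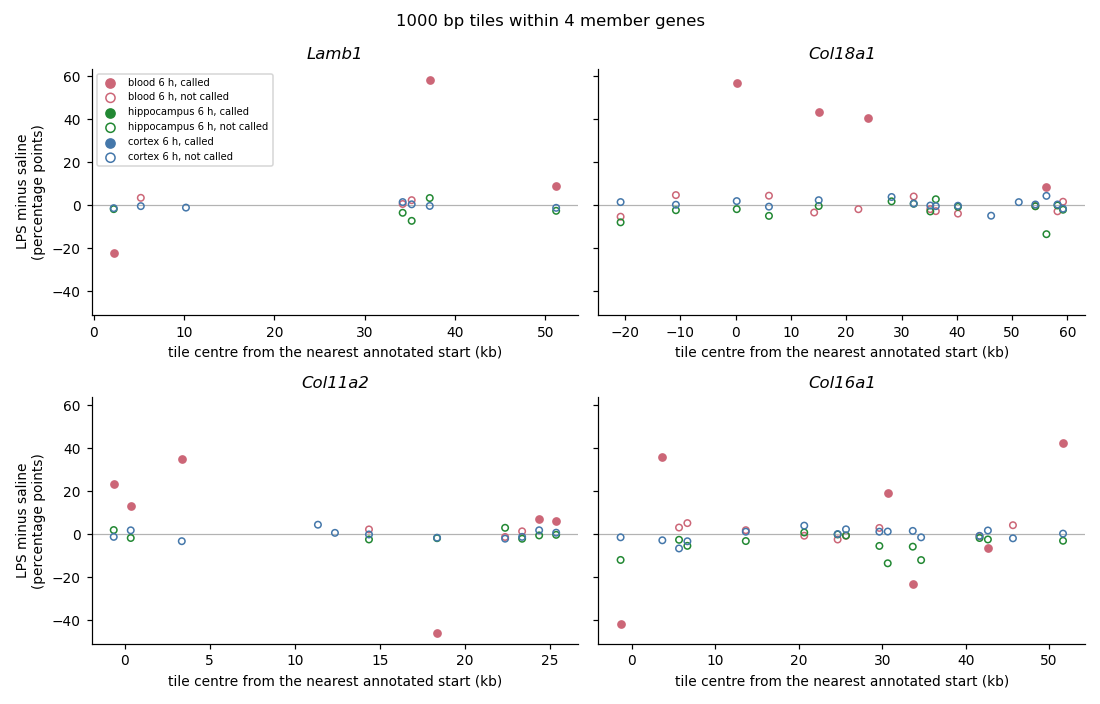
Difference LPS minus saline at 6 h (y axis, percentage points) of 1000 bp tiles in 4 members against the distance of the tile centre from the nearest annotated start (x axis, kb), with red for blood, green for hippocampus and blue for cortex, filled where called. Called points are all from blood, and they lie on both sides of 0 in Lamb1, Col11a2 and Col16a1.

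Outside blood those tiles stood elsewhere. Over the cytosines in all 9 tables, the Lamb1 tile was at 30.1% in saline blood, 88.5, 90.2 and 92.2% in LPS blood at 6, 12 and 24 h, 36.8% in saline hippocampus and 69.8% in saline cortex. The Col11a2 tile was at 57.1% in saline blood, 11.3% in LPS blood at 6 h, 77.1% in saline hippocampus and 81.8% in saline cortex. Saline blood lay between LPS blood and both brain regions at the Col11a2 and Col16a1 tiles, but below all of these groups at the Lamb1 and Col25a1 tiles.

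Around the starts themselves, levels were mostly low. Within 500 bp of a RefSeq start, 21 members had at least 3 cytosines in blood at 6 h, and 12 of them were under 5% in both groups. Of the 8 with a mean of 5 to 95%, 7 rose and 0 fell, where 46.7% of all starts tested rose and 11.8% fell. The limit was set on the average of the 2 group means, so a start under 5% in saline could enter only by being higher under LPS. Col8a2 (3.45 to 5.16% in the saline libraries), Col4a4 (4.04 to 5.86%) and Col6a2 (0 to 10.3%, mean 4.96%) entered in this way. Of these, Col6a2 was not called. The count of rises is thus partly set by the limit, which held for all starts and times. At 12 h 5 of 7 rose and 0 fell, against 47.8% and 9.80% of all starts, and at 24 h 6 of 8 rose and 0 fell, against 44.4% and 11.9%. Col11a2 was at 16.4, 21.95, 14.1 and 14.7% in the saline libraries and 43.2, 29.9, 40.4 and 30.4% in the LPS libraries, a rise of 19.21 points (SE 3.38, limma adjusted p = 0.00112). Col18a1 was at 10.9, 9.24, 9.59 and 8.84% in the saline libraries and 30.3, 25.3, 28.02 and 29.4% in the LPS libraries, a rise of 18.60 points (SE 1.28, limma adjusted p = 6.65e-06). Its 2 starts are pooled in this value, and the tile at the second start is the one described above. In both genes the 2 groups were separate.

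The other starts that rose at 6 h were those of Col7a1, by 9.83 points (SE 2.26, limma adjusted p = 0.00481), Col6a5, by 7.13 points (SE 2.12, limma adjusted p = 0.0175), Col9a2, by 5.10 points (SE 1.30, limma adjusted p = 0.00843), Col8a2, by 3.61 points (SE 0.71, limma adjusted p = 0.00213) and Col4a4, by 3.52 points (SE 0.62, limma adjusted p = 0.00111). Col9a2 and Col6a5 are 2 of the promoters printed above, with the highest level among them. The starts of Col4a1 and Col4a2, Lama5, Col5a1, Col13a1, Col23a1, Col25a1 and Col27a1 were at 1.24% or less in both groups, so Lama5, Col23a1 and Col25a1 rose over the gene with a start that was nearly unmethylated in both groups.

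**Figure D3:**
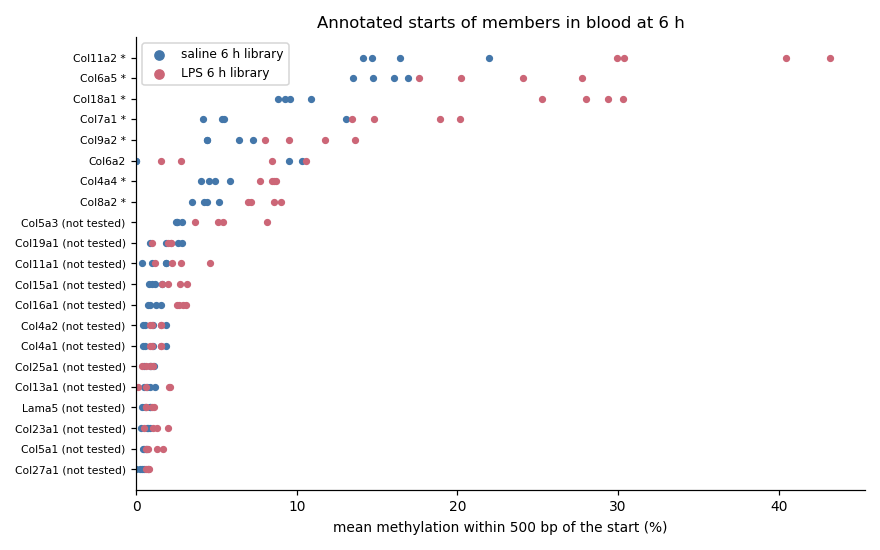
Mean methylation within 500 bp of the start (x axis, percent) in blood at 6 h, 1 point per library (blue saline, red LPS), for the 21 members with 3 or more cytosines there, a star marking the 7 called. The starts of Col11a2 and Col18a1 separate by 19.2 and 18.6 points, and 12 of the 21 stay under 5%.

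Genes that act on or with these proteins were read from lists, whose counts stand beside 43.1% of all genes higher and 9.77% lower at 6 h. For 12 h these shares were 48.8% and 8.02%, and for 24 h 41.6% and 8.88%. Of 12 basement membrane partners, 8 rose and 1 fell at 6 h, with 7 against 2 at 12 h and 9 against 1 at 24 h. Hspg2, which encodes perlecan, went from 64.4% to 72.7% and Agrn, which encodes agrin, from 38.8% to 43.2%, while Nid2, a nidogen that joins laminin to type IV collagen, fell from 38.6% to 33.0%. Of the 19 modification and processing genes tested at 6 h, 10 rose and 0 fell. Serpinh1, the collagen chaperone HSP47, went from 12.0% to 40.7% over 7 cytosines and Pcolce, the procollagen C-proteinase enhancer, from 50.5% to 79.0% over 10. Lox, the crosslinking enzyme, went from 6.81% to 12.3%. Of 14 receptors tested, 7 rose and 2 fell: Itga2, a collagen-binding integrin chain, went from 41.5% to 54.7% and Itga3, a laminin-binding one, from 11.9% to 23.3%, and Bcam, the Lutheran laminin receptor, from 73.9% to 67.6%. Of 7 breakdown genes, 4 rose and 2 fell, with Mmp14 from 25.02% to 38.5% and Mmp8, the neutrophil collagenase, from 67.8% to 38.8%. Mmp8 stands in the neutrophil list too.

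In hippocampus at 6 h, 5 members fell and none rose, where 6.76% of all genes fell and 0.00911% rose. They were Lamc3, Lamb3, Col9a2, Col25a1 and Col15a1, with levels for Lamc3 of 50.7, 48.9 and 49.6% in the saline libraries and 45.1, 43.1, 45.1 and 44.5% in the LPS libraries. Lamb3 was at 27.9, 28.6 and 30.1% in the saline libraries and 25.8, 24.4, 23.6 and 22.7% in the LPS libraries. The groups did not overlap in either gene. Lamc3 fell by 5.28 points (SE 0.84, limma adjusted p = 0.0327) and Lamb3 by 4.74 points (adjusted p = 0.0376), while Col9a2, Col25a1 and Col15a1 fell by 4.23, 4.14 and 1.41 points. All 53 differences were negative, with a median of -1.48 points against -0.99 over all genes, and 24 had an unadjusted p under 0.05. Over all genes, 16% of differences were positive and 31.7% had an unadjusted p under 0.05. The 5 calls depended on the setting: 0 members were called with each library centred, with the median over cytosines, with the replicate number as a block, or without any 1 saline library or LPS replicate 2, 1 without LPS replicate 1 or 4, and 4 without LPS replicate 3. With at least 10 cytosines per gene 12 were called, Lama2 (-7.55 points, limma adjusted p = 0.038), Col6a1 (-5.85) and Lama1 (-3.29) among them. The marker lists moved there too. The mean over a list in the saline and then the LPS libraries was 73.4 to 75.0% against 71.3 to 71.9% for neutrophils, 32.6 to 35.7% against 28.02 to 30.9% for astrocytes (4 of 5 genes measured) and 23.9 to 24.8% against 18.6 to 23.0% for oligodendrocytes. It was 64.3 to 65.8% against 58.3 to 63.4% for endothelial and mural cells, 20.96 to 21.7% against 18.7 to 20.8% for neurons (5 of 6) and 57.2 to 60.6% against 47.4 to 57.1% for B cells (3 of 4). These 6 lists were lower under LPS with no overlap of libraries, while the T cell list (58.5 to 59.7% against 57.4 to 59.2%) and the fibroblast list (54.5 to 56.0% against 52.3 to 54.9%) overlapped. Single marker genes called lower were Sox10, Aqp4, Kdr and Cspg4, and none was called higher. The part of the cell mix in the hippocampus result was not tested.

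In hippocampus at 12 h and 24 h and in cortex at 6, 12 and 24 h no member was called by limma, and no gene of the whole table was (0%). At an unadjusted p under 0.05 there were 2, 6, 0, 1 and 0 members. The member median was -0.91, -0.77, -0.03, -0.37 and 0.48 points, and over all genes it was -0.33, -0.46, -0.0038, -0.14 and 0.19. No member tile or start was called in either brain region at any time, where 0% of all tiles and, at most, 0.0979% of all starts (hippocampus at 6 h) were.

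**Figure D4:**
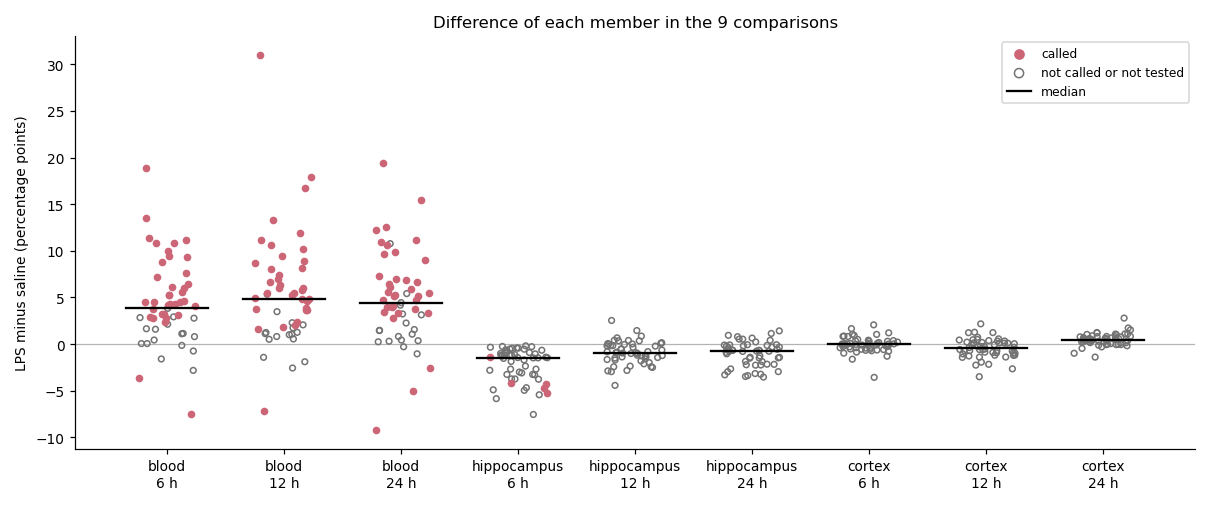
Difference LPS minus saline (y axis, percentage points) of each measured member, 1 point per gene, in the 9 comparisons of tissue and time (x axis), filled red where called, with a black line at the median. The blood medians lie at 3.83 to 4.87 points, and the brain medians between -1.48 and 0.48.

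The difference between tissues was tested directly, by the interaction of injection and tissue over cytosines in both tables. At 6 h the LPS difference of 38 of 53 members was larger in blood than in hippocampus and in 0 it was smaller, where 50.4% of all genes were larger and 4.53% smaller. At 12 h the counts were 29 larger and 1 smaller of 52 (36.1% and 4.15%), and at 24 h 33 and 1 of 53 (41.7% and 5.39%). Against cortex they were 24 and 1 of 52 at 6 h (32.4% and 6.61%), 29 and 0 of 51 at 12 h (37.3% and 5.33%) and 20 and 1 of 53 at 24 h (30.3% and 7.24%). Col3a1 had the largest difference in each, at 6 h 22.29 points (SE 4.95, limma adjusted p = 0.00164) against hippocampus and 19.09 points (SE 2.96, limma adjusted p = 0.000135) against cortex. Lama2 was the 1 smaller member wherever there was one, as at 6 h against cortex, -8.49 points (SE 2.04, limma adjusted p = 0.004). Against hippocampus at 6 h its difference was -1.73 points (SE 2.55, limma adjusted p = 0.601) and did not pass.

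Without LPS, members differed between the tissues. Over cytosines in all 3 tables of 6 h, 15 of 52 members were higher and 15 lower in hippocampus than in blood, where 20.4% of all genes were higher and 31.9% lower. Cortex against blood gave 21 higher and 12 lower (24.1% and 30.0%). Cortex against hippocampus gave 7 higher and 0 lower (9.25% and 3.12%). Col3a1 was at 28.8% ± 1.89 (SD, n = 4) in saline blood, 63.7% ± 5.61 (n = 3) in saline hippocampus and 68.7% ± 0.978 (n = 4) in saline cortex, and blood was lower than hippocampus by 34.93 points (limma adjusted p = 4.02e-07). Lamb3 went the other way, at 54.7% ± 2.77 (SD, n = 4) in saline blood, 30.8% ± 1.20 (n = 3) in saline hippocampus and 33.6% ± 3.12 (n = 4) in saline cortex. Its cortex difference was -21.05 points (adjusted p = 2.13e-06).

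Col9a1, another type IX chain, was at 76.6% ± 1.48 (SD, n = 4) in saline blood, 63.9% ± 1.47 (n = 3) in saline hippocampus and 72.0% ± 1.43 (n = 4) in saline cortex, and all 3 contrasts passed. Col9a2 was at 19.9% ± 1.01 (SD, n = 4) in saline blood, 30.3% ± 0.798 (n = 3) in saline hippocampus and 30.4% ± 3.43 (n = 4) in saline cortex, so 2 chains of the same collagen differed in opposite directions between blood and brain. The 7 members higher in cortex than in hippocampus were Lamb1 (8.21 points), Col9a1 (8.08), Col26a1 (4.15), Col27a1 (3.55), Col23a1 (2.97), Col16a1 (2.92) and Col4a2 (2.75). Without hippocampus saline replicate 2 that count was 4.

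**Figure D5:**
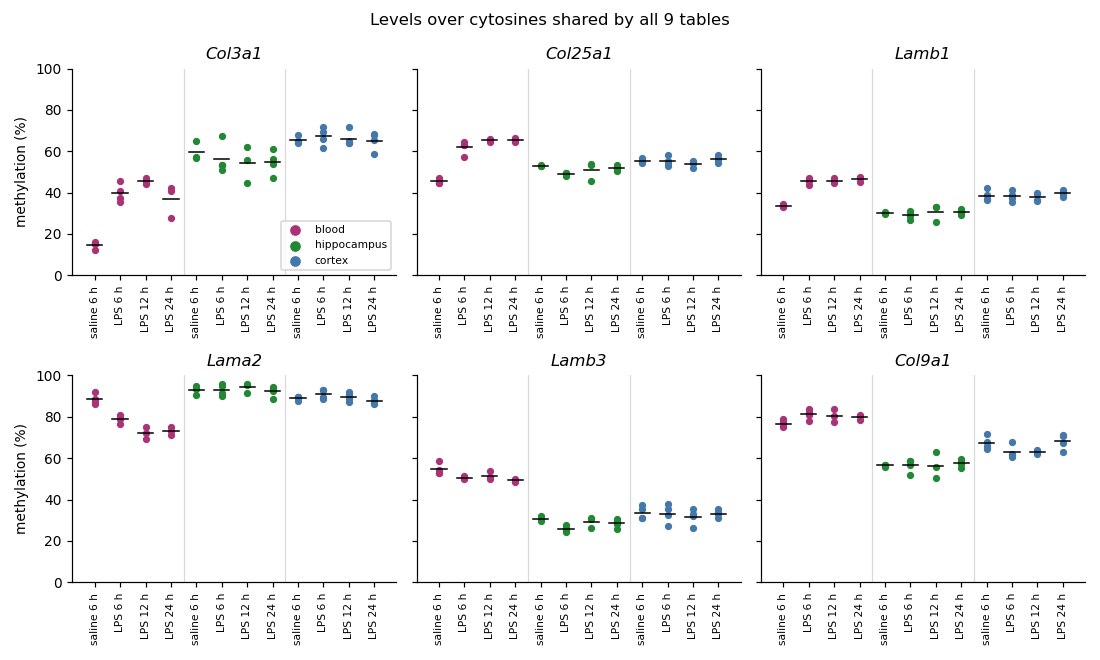
Methylation (y axis, percent) of 6 members in the 12 groups of tissue, injection and time (x axis), 1 point per library with a line at the group mean, over cytosines found in all 9 tables. Col3a1 is at 14.7% in saline blood and at 37.0% or more in every other group mean, and in Lama2 the LPS blood means lie below that of saline blood.

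Over the cytosines in all 9 tables, Col3a1 (4 cytosines) stood at 14.7% ± 1.81 (SD, n = 4) in saline blood, at 39.8% ± 4.56, 45.7% ± 1.51 and 37.0% ± 7.90 in LPS blood at 6, 12 and 24 h, and at 54.1 to 67.2% in the 8 brain groups. In Col25a1 (65 cytosines) saline blood was the lowest group, at 45.6%, LPS blood the highest, at 61.9 to 65.4%, and the brain groups lay between them at 49.0 to 56.5%. In Lamb1 (49 cytosines), LPS blood stood at 45.7 to 46.5%, above saline blood at 33.6%, hippocampus at 29.2 to 30.7% and cortex at 37.9 to 39.6%. In Lama2 (5 cytosines), LPS blood at 72.2 to 78.9% was below saline blood at 88.5% and all brain groups at 87.8 to 94.2%.

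The level after LPS did not change detectably between 6 h and 24 h. Over cytosines common to the tables of a tissue, with limma, 0 of 51 members in blood, 0 of 53 in hippocampus and 0 of 52 in cortex differed between these groups, and 0% of all genes did. At an unadjusted p under 0.05 there were 0, 4 and 1 members. The largest differences, in either direction, were 3.20 points for Col22a1 in blood, 4.45 for Col20a1 in hippocampus and 4.62 for Col9a1 in cortex.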

How the data were processed

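RRBS percentages of methylation per cytosine from 44 libraries in 12 groups were used as deposited, in 9 tables of 1 tissue and time each. Per the labels' protocols, the libraries were made from 100 ng of DNA with the Ovation RRBS Methyl-Seq system. Per the submitters' processing notes, the authors used Bismark with Bowtie2 and methylKit, beside Trim Galore, FastQC and SAMtools, with GRCm38/mm10. No source used here gives versions. The tables hold no read counts, so depth and its error are unknown and no coverage minimum could be varied.

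Gene, tile and start means need 3 cytosines and a mean of 5 to 95%. They were compared with limma 3.58.1 in R 4.3.3 (a linear model with trended moderated variances; tests two-sided), with Benjamini-Hochberg adjustment over all genes, tiles or starts of a comparison, and called at an adjusted p under 0.05 (tiles also at 5 points). Gene positions and promoters came from RefSeq, GRCm38.p6. The fit was tested on simulated data. The members and gene lists were chosen with earlier results of these data known. Genes named in full are those with the 5 largest called differences in each direction (3 for tissues), plus 13 fixed members, and members whose call depended on a library were also named. The labels give replicate numbers in all groups. The deviations of same-numbered libraries correlated at over 0.1 in every pair only in blood at 12 h (0.139 to 0.193, 3 pairs). Other-numbered ones reached 0.246 there, so the numbers do not show pairs there. Same-numbered libraries reached more than other-numbered ones in hippocampus at 12 h (0.219 against 0.138), blood at 24 h (0.236 against 0.226) and cortex at 12 h (0.445 against 0.434). In the remaining comparisons they did not. With 3 or 4 libraries in a group, these values cannot decide whether libraries were paired. The alternatives, leaving out each library included, are given at the end. The values of 1 member are not reported here singly, though it stays in the fits and counts.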

Additional observations from a re-analysis of the deposited data

Results flagged for a closer look

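In 8 of 185 groups of 4 libraries tested, 1 library lay far from the other 3 by Dixon's criterion, and chance gives about 1 in 20 groups. Replicate 2 of the LPS group at 6 h in blood was low in Col4a4 (38.2831%), Col1a2 (81.8246%) and Col6a1 (84.1998%). Lama1 was low in hippocampus LPS 6 h replicate 2 (61.5601%), and Col6a1 was high in hippocampus LPS 24 h replicate 1 (74.8605%). In cortex LPS 6 h replicate 3, Col1a1 (56.8361%) and Lamb2 (44.0765%) were high. The median over all members was low in cortex LPS 12 h replicate 3 (51.9848%).

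The LPS difference of members differed between blood and brain by limma's interaction contrast. Against hippocampus this held for 38 members at 6 h, 30 at 12 h and 34 at 24 h. Against cortex it held for 25, 29 and 21 members.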

How the results depend on the processing

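Of the counts of called members under all alternatives, 502 stayed within 1.5 times the value reported and 15 did not. Counts of 0 that stayed at 0 are among the 502, as in most LPS comparisons in brain and in those of 24 h against 6 h. In blood at 24 h, the median over cytosines gave 23 members in place of 35. In hippocampus at 6 h, the 5 calls became 12 with at least 10 cytosines per gene, 3 with cytosines in all 3 tables, 1 with no limit on the mean level and 0 with centring, with the median over cytosines or with the replicate block. Leaving out 1 library gave 0 to 4 there, 0 to 2 member tiles in hippocampus at 12 h (2 without LPS 12 h replicate 2, otherwise 0), and 4 to 9 members between cortex and hippocampus under saline (4 without hippocampus saline replicate 2). The cause was not tested.

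Of the differences of named genes, 2166 kept their call or lack of one, 119 lost the call, 12 gained it and 4 reversed. A reversal was counted only where the gene was called in the reported fit or in the alternative. Any changes of sign with no call in either stand among the 2166. The reversals were Lamb3 in blood with the median over cytosines (10.3 points at 6 h, 14.02 at 24 h), Lama2 at 12 h with that median (1.74) and Lamb2 at 12 h with centring (-0.79). The 280 values for tiles, 93 for starts and 206 for saline tissues followed only the largest called differences of these data. All of them kept direction and call, which such a choice favours. Over all members, leaving out 1 library gave 4 to 6 called starts in blood at 12 h and at 24 h, in place of 5 and 6. It gave 138 to 146 called tiles in blood at 12 h, in place of 152.

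With the replicate number as a block, 34, 35 and 27 members were called in blood at 6, 12 and 24 h in place of 36, 36 and 35, and 0 in place of 5 in hippocampus at 6 h. At 12 h in blood no count moved beyond 1.5 times. The labels do not say whether libraries with the same number, within or between tissues, came from 1 animal. The reported contrasts between tissues treated them as independent. With the block, the counts for saline tissues were 29, 32 and 7 in place of 30, 33 and 7 (hippocampus against blood, cortex against blood, cortex against hippocampus). Depth is unknown, and groups of 3 or 4 libraries limit what could be detected.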
